A study of Mus musculus with 15 samples.

Results

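The orphan nuclear receptor genes Nr2f1, Nr2f2, Nr2f6, Nr2e1, Rora and Rorb were followed across 5 regions of the embryonic mouse brain. These 6 were taken by name from the 24264 genes of the deposited table: the COUP-TF genes Nr2f1 (COUP-TFI), Nr2f2 (COUP-TFII) and Nr2f6, the Tlx gene Nr2e1, and the ROR genes Rora and Rorb. All 6 were in the table and all 6 were among the 13745 genes tested. The forebrain, dorsal midbrain, alar plate, ventral midbrain and hindbrain of E12.5 embryos were each represented by 3 RNA-seq libraries. Every group had the C57bl/6 background and carried green fluorescent protein under the promoter of Th, the gene of tyrosine hydroxylase, so no group differed from another in genotype or treatment. The regions were dissected under a microscope as whole tissue, without a sort for the reporter, as far as the labels say, and each library was made from 200 ng of RNA. The labels give neither the place of the alar plate samples nor the number of embryos behind a region, and with nothing to show separate embryos the p-values speak only for the spread of these samples, part of which may be technical.

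Orphan nuclear receptors are transcription factors with the DNA-binding and ligand-binding folds of steroid and thyroid hormone receptors, but were found without a known hormone. COUP-TF proteins and Tlx act mostly as repressors through recruited co-repressors, while ROR proteins bind single AGGTCA-type elements as monomers and mostly activate. In the developing brain COUP-TFs are known for areal patterning and neuronal migration, Tlx for keeping neural progenitors dividing, and RORs for later neuron classes such as Purkinje cells and cortical layer neurons.

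Values are RPKM, reads scaled for the length of the gene model and the mapped reads of the library, which allow levels of different genes to be compared per length. Nr2f1 and Nr2f2 were the most abundant, with region means of 17.8 to 107 RPKM and 28.8 to 54.8 RPKM. Nr2f6 lay between 9.11 and 16.2 RPKM. Nr2e1 spanned from 0.0571 RPKM in the ventral midbrain to 20.9 RPKM in the dorsal midbrain, while Rora had 0.776 to 1.99 RPKM and Rorb 0.356 to 1.22 RPKM. In whole tissue, fewer expressing cells and less RNA per cell cannot be told apart. Differences between regions were tested with limma on log2(RPKM + 1), with p-values adjusted over all tested genes and a threshold of 0.05. An F test over the 5 regions called 4 of the 6 genes (Nr2f1, Nr2f6, Nr2e1 and Rorb), where 33.7% of all tested genes were called.

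**Figure D1:**
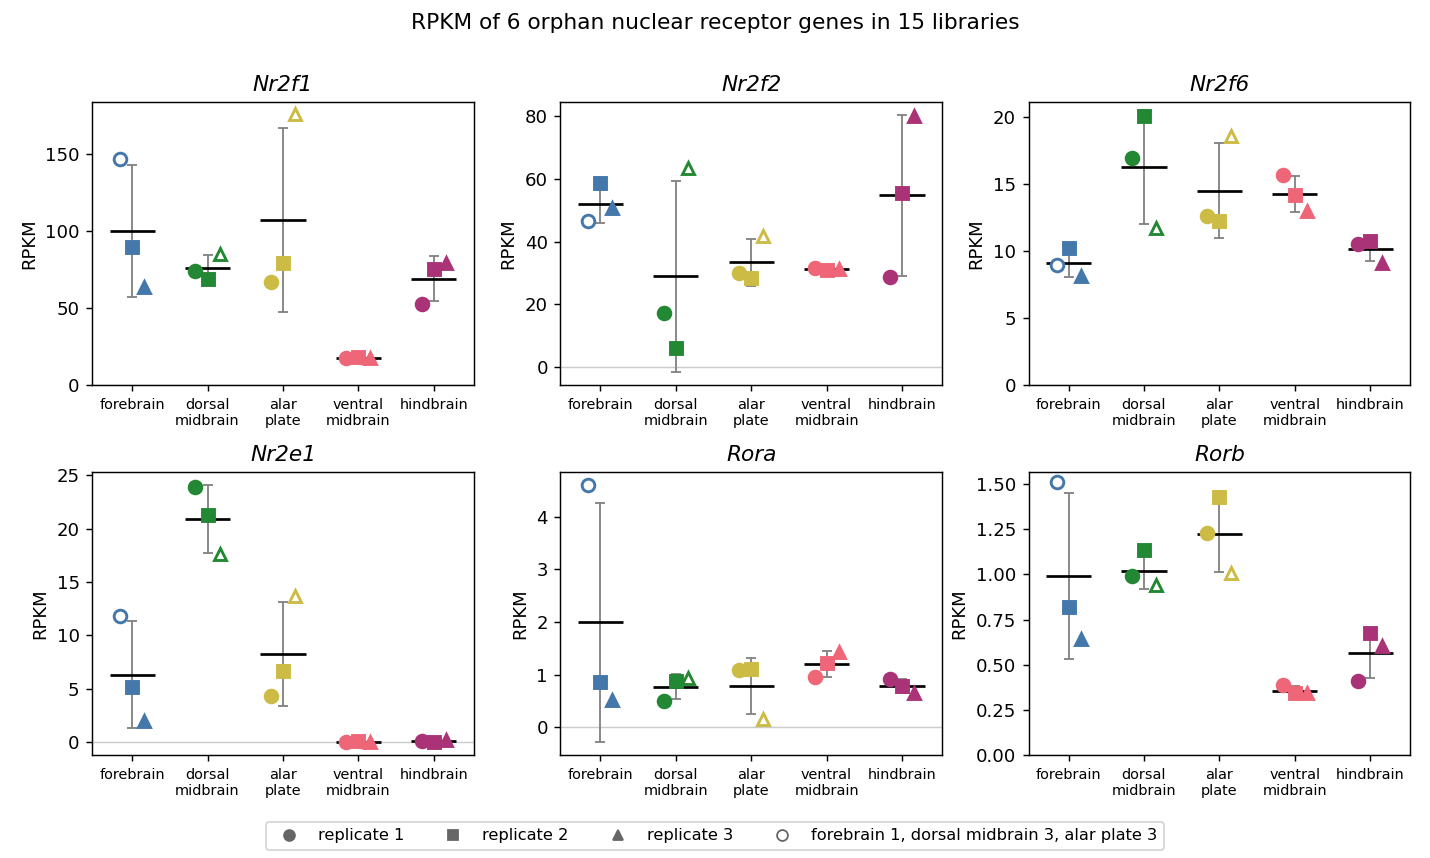
RPKM (y axis, a separate linear scale in each panel) of the 6 receptor genes in the 5 regions (x axis), 1 point per library with the replicate number as its shape, a black bar at the mean and grey bars of 1 SD over the 3 libraries. Open symbols are forebrain 1, dorsal midbrain 3 and alar plate 3, which lie apart from the other libraries of their regions. Nr2f1 is lowest in all 3 ventral midbrain libraries and Nr2e1 is below 0.2 RPKM in all ventral midbrain and hindbrain libraries.

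A set of 3 libraries lay apart from their groups and touch the results below. Pearson r over genes on the log2(RPKM + 1) scale with the other libraries of the region was 0.96 to 0.964 for forebrain 1, 0.968 to 0.971 for dorsal midbrain 3 and 0.925 to 0.927 for alar plate 3. Alar plate 3 also favoured short genes: the shortest quartile of genes had 2.6 times the median RPKM of the longest, against 1 to 1.15 times in the other libraries. Recovered reads summed to between 7759761 and 11782834 per library. Th was at 68.9 to 81.7 RPKM in the ventral midbrain and at most 6.39 RPKM elsewhere. Tcf7l2, a gene of the thalamus and pretectum, was at 132 to 404 RPKM in the 3 libraries labelled forebrain. Tcf7l2 was also at 378 RPKM in dorsal midbrain 3 and 214 RPKM in alar plate 3, against 18.9 to 80.4 RPKM in the other dorsal midbrain and alar plate libraries. In the hindbrain, Hoxa2 was at 0.107, 11.1 and 6.24 RPKM in libraries 1, 2 and 3. The forebrain libraries also differed in 6 ventral midbrain markers, with sums of 5.70, 34.7 and 85.7 RPKM in forebrain 1, 2 and 3. Foxa2 was at 0.137, 16.25 and 20.6 RPKM there and Lmx1a at 0.207, 6.93 and 41.3 RPKM. Nr2f1, Nr2e1, Rora and Rorb fell from forebrain 1 to 3, while Nr2f2 and Nr2f6 did not. A link to these markers was not tested.

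Nr2f1 encodes COUP-TFI, a repressor known for patterning the neocortex. It was lower in the ventral midbrain than in each of the other 4 regions. The ventral midbrain libraries had 17.8, 18.0 and 17.7 RPKM. Forebrain libraries had 147, 89.5 and 63.4 RPKM, and dorsal midbrain libraries 74.1, 69.1 and 85.2 RPKM. The alar plate had 66.9, 79.3 and 176 RPKM, and the hindbrain 52.4, 75.4 and 79.2 RPKM. The 3 ventral midbrain libraries were nearly equal and below all other 12, while the other 4 regions overlapped with each other and the highest values came from alar plate 3 and forebrain 1.

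The mean of Nr2f1 in the ventral midbrain, 17.8 ± 0.140 RPKM (SD, n = 3), stood against 107 ± 59.6 RPKM in the alar plate, 99.9 ± 42.7 RPKM in the forebrain, 76.1 ± 8.27 RPKM in the dorsal midbrain and 69.0 ± 14.5 RPKM in the hindbrain. These are 3.87 to 6.02 times the ventral midbrain mean. On the log2(RPKM + 1) scale the alar plate was higher than the ventral midbrain by 2.39 (SE 0.332, limma adjusted p = 0.000345) and the forebrain by 2.34 (adjusted p = 0.000582). For the dorsal midbrain the excess was 2.03 (adjusted p = 0.00115), and the ventral midbrain minus hindbrain difference was -1.87 (adjusted p = 0.00545). None of the other 6 pairs passed, so the order alar plate, forebrain, dorsal midbrain, hindbrain is not resolved beyond the spread. The adjusted p over regions was 0.000905.

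Neural markers are given beside the low Nr2f1 level of the ventral midbrain. Summed RPKM over 11 neural progenitor markers was 1534 to 1764 there, against 901 to 1893 in the other libraries, and over 11 neuron markers 2851 to 3084 RPKM against 1976 to 3092 RPKM. Single progenitor markers differed from their sum: Top2a had a mean of 29.5 RPKM in the ventral midbrain and 110.8 RPKM in the dorsal midbrain, and Slc1a3 74.6 and 11.4 RPKM. Tubb3, with region means of 998 to 1378 RPKM, makes up much of the neuron sum. Of the 11 neuron markers, 5 were called over regions (45.5%, against 33.7% of all tested genes). Of these, 4 were highest in the ventral midbrain and 1 in the forebrain. Nefl had a mean of 270.5 RPKM in the ventral midbrain and 56.0 to 118 RPKM in the other regions, and Nefm 171 and 36.3 to 67.7 RPKM. The part of these markers in the Nr2f1 level was not tested. In RefSeq the long noncoding gene A830082K12Rik shares 857 bases with Nr2f1 on the opposite strand. The strand setting of the counting is unknown here, so reads in the shared stretch cannot be told apart. A830082K12Rik had 3.23 to 3.67 RPKM in the ventral midbrain and 6.64 to 14.2 RPKM in the other libraries, and was the gene most like Nr2f1 (Pearson r 0.963 over the 15 libraries, among 10383 genes searched). Dusp1 (0.948), Rnf114 (0.925), Cited2 (0.924) and Ier5l (0.917) followed. These r values are descriptions only, since all genes of a library share its depth and preparation.

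The bases upstream of Nr2f1 and Nr2e1, the members with the largest differences between regions, are shown from RefSeq (GRCm38.p6, minus strand, 5′ to 3′), as the windows in which sequence elements were searched. That of Nr2f1 is chr13:78198874-78199123 and that of Nr2e1 is chr10:42583591-42583840, each of 250 bases and ending just before the annotated start. The third line is the stretch of Nr2e1 at chr10:42583570-42583591, whose capitals mark AAGTCA, the core of the element that Tlx binds, beginning 8 bases after the start.
Nr2f1: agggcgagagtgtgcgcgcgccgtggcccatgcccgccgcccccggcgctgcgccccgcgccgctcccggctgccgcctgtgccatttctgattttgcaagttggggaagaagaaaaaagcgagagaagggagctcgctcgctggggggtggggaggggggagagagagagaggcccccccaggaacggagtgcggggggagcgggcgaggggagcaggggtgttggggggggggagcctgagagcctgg
Nr2e1: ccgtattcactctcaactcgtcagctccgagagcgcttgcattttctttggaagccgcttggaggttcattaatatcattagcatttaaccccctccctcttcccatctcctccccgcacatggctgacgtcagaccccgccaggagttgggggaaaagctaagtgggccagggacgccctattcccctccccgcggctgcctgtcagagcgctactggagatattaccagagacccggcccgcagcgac
Nr2e1 AAGTCA: caggcacaAAGTCAcagggtaa
In windows of 300 bases (250 before and 50 after each start), AAGTCA on either strand was in 1 of the 8 windows of the 6 genes, that of Nr2e1 above, and in 15.1% of the 32851 windows of all genes. AGGTCA, the element of COUP-TFs and RORs, was in 0 of the 8 and in 16.3% of all windows. TAATTA, a homeodomain core, was in 0 of the 8 and in 5.29% of all windows. The Nr2f1 window had a GC content of 68% and that of Nr2e1 58%, against a median of 52.7%. A match is only a run of letters in these windows, and its absence says nothing of a factor.

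Nr2f2 encodes COUP-TFII, the close paralog of COUP-TFI, known in the brain for ventral and caudal territories and outside it for venous endothelium and mesenchyme. No difference between regions passed the test. Forebrain libraries had 46.6, 58.7 and 50.6 RPKM, and ventral midbrain libraries 31.6, 30.9 and 31.2 RPKM. The alar plate had 29.8, 28.3 and 41.9 RPKM, and the hindbrain 28.8, 55.4 and 80.1 RPKM. Dorsal midbrain libraries had 17.1, 5.89 and 63.6 RPKM. The dorsal midbrain thus held the lowest 2 of all 15 values and, in library 3, the second highest.

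Means of Nr2f2 ran from 54.8 ± 25.7 RPKM in the hindbrain and 52.0 ± 6.17 RPKM in the forebrain to 33.4 ± 7.45 RPKM in the alar plate, 31.2 ± 0.349 RPKM in the ventral midbrain and 28.8 ± 30.6 RPKM in the dorsal midbrain (SD, n = 3 each). The limma F test gave an adjusted p of 0.247. In pairs of regions 0 of 10 differences passed, and 2 had an unadjusted p under 0.05: forebrain minus dorsal midbrain was 1.40 (95% interval 0.14 to 2.66, adjusted p = 0.0912) and dorsal midbrain minus hindbrain -1.36 (-2.62 to -0.10, adjusted p = 0.0929). Dorsal midbrain 3 decided this outcome. Without it the F test passed (adjusted p = 0.00674, against a range of 0.00352 to 0.434 over 23 alternatives). Without dorsal midbrain 3, alar plate 3 and forebrain 1 together, the dorsal midbrain was lower than the forebrain by 2.32, than the hindbrain (difference -2.21, adjusted p = 0.000652), than the ventral midbrain (-1.53, adjusted p = 0.00729) and than the alar plate (-1.43, adjusted p = 0.0255). In that fit 9651 of 13646 tested genes were called over regions, against 4631 of 13745 with all libraries.

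Markers of vessels and connective tissue, which also express Nr2f2, were given beside it. Of all tested genes, 33.7% were called over regions. Over 10 endothelial markers, of which 3 were called over regions, the summed RPKM was 84.1, 87.0 and 61.6 in the dorsal midbrain, 49.4 to 57.9 in the forebrain, 48.0 to 77.4 in the alar plate, 63.7 to 69.7 in the ventral midbrain and 53.6 to 60.3 in the hindbrain. The 3 called were Kdr, Tie1 and Emcn, each highest in the dorsal midbrain, with means of 13.3, 6.86 and 4.70 RPKM. Their lowest region means were 7.44, 4.69 and 1.65 RPKM. Cldn5, which was not called, was at 10.6 to 22.2 RPKM in every library. Over 10 markers of meninges and mesenchyme, of which 8 were tested and 7 called, the sums were 122, 129 and 68.6 RPKM in the dorsal midbrain and 168, 9.27 and 49.5 RPKM in the alar plate, against 4.38 to 16.4 RPKM in the other 9 libraries. Dorsal midbrain 3, with the highest Nr2f2 of its region, had the lowest sum of its region for both lists. The part of these tissues in the Nr2f2 level was not tested.

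The long noncoding gene B130024G19Rik, which shares 1364 bases with Nr2f2 in RefSeq, had 1.36, 0.384 and 4.30 RPKM in dorsal midbrain 1, 2 and 3. It was thus also highest in library 3, and reads of the shared stretch cannot be told apart. Genes most like Nr2f2 over the 15 libraries were Lbh (r 0.882), Epha3 (0.863), Wrnip1 (0.856), Glrx2 (0.854) and Klhl2 (0.854).

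The ratio of the paralogs, Nr2f2 over Nr2f1 in RPKM, was 1.72 to 1.78 in the 3 ventral midbrain libraries. It was 0.318 to 0.799 in the forebrain, 0.0853 to 0.746 in the dorsal midbrain, 0.239 to 0.446 in the alar plate and 0.549 to 1.01 in the hindbrain. Outside the ventral midbrain Nr2f2 exceeded Nr2f1 in 1 of 12 libraries, hindbrain 3. The ratio is a description without a test.

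Nr2f6 (also called EAR2) is the third COUP-TF, known for the development of the noradrenergic locus coeruleus. Among the 4 called genes it had the smallest ratio of highest to lowest region mean, 1.78. Dorsal midbrain libraries had 16.9, 20.1 and 11.7 RPKM, alar plate libraries 12.6, 12.3 and 18.6 RPKM, and ventral midbrain libraries 15.6, 14.2 and 13.0 RPKM. Hindbrain libraries had 10.5, 10.8 and 9.13 RPKM and forebrain libraries 8.96, 10.2 and 8.14 RPKM. The 6 hindbrain and forebrain values lay below the 9 others, with overlap within each of these sets.

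Region means of Nr2f6 were 16.2 ± 4.24 RPKM in the dorsal midbrain, 14.5 ± 3.53 RPKM in the alar plate, 14.3 ± 1.33 RPKM in the ventral midbrain, 10.1 ± 0.874 RPKM in the hindbrain and 9.11 ± 1.06 RPKM in the forebrain (SD, n = 3 each). The limma adjusted p over regions was 0.0227. Forebrain minus dorsal midbrain was -0.74 (SE 0.184, adjusted p = 0.0132) and dorsal midbrain minus hindbrain 0.60 (adjusted p = 0.0252); no neighbours in the order differed. Both calls were lost on leaving out some single libraries, while the differences kept their direction over 24 alternatives. These ran from -0.949 to -0.583 for forebrain minus dorsal midbrain and from 0.442 to 0.808 for dorsal midbrain minus hindbrain. Without dorsal midbrain 1 or 2, calls over all genes also fell, to 2352 and 2364 against 4631. The F test did not pass without forebrain 3 (adjusted p = 0.0602) or dorsal midbrain 1 (0.0643), with 0.000227 to 0.0643 over 23 alternatives. The forebrain difference did not pass without forebrain 3 (adjusted p = 0.063), dorsal midbrain 1 (0.0655) or dorsal midbrain 2 (0.0699), or with that pair fitted alone (0.0513), with 6.58e-05 to 0.0699 over 24 alternatives. The hindbrain difference did not pass without dorsal midbrain 1 (0.0945), dorsal midbrain 2 (0.122), hindbrain 2 (0.0549) or hindbrain 3 (0.0931), with 9.45e-05 to 0.122 over 24 alternatives. Without the 3 libraries that lay apart, 7 of 10 pairs of Nr2f6 passed. Calls were more common for all genes in that fit, with 9651 of 13646 called over regions, against 4631 of 13745. Genes most like it were Tpd52l2 (r 0.936), Akr1b3 (0.932), Gm6644 (0.932), Spr (0.924) and Cnn3 (0.916).

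Nr2e1 encodes Tlx, known for keeping neural stem cells in the forebrain and retina undifferentiated. It had the widest range of region means of the 6 genes: it was highest in the dorsal midbrain and almost without reads in the ventral midbrain and hindbrain. Dorsal midbrain libraries had 23.9, 21.3 and 17.6 RPKM. Alar plate libraries had 4.34, 6.70 and 13.7 RPKM and forebrain libraries 11.8, 5.20 and 1.98 RPKM. The ventral midbrain had 0.0665, 0.0768 and 0.0279 RPKM, which are 2, 3 and 1 reads, and the hindbrain 0.143, 0.0512 and 0.170 RPKM, which are 5, 2 and 7 reads. The dorsal midbrain values lay above all others, those of alar plate and forebrain overlapped, and the 6 ventral midbrain and hindbrain values were all below the lowest forebrain value.

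Means of Nr2e1 were 20.9 ± 3.18 RPKM in the dorsal midbrain, 8.26 ± 4.88 RPKM in the alar plate, 6.34 ± 5.03 RPKM in the forebrain, 0.121 ± 0.0623 RPKM in the hindbrain and 0.0571 ± 0.0258 RPKM in the ventral midbrain (SD, n = 3 each). From reads summed over libraries, the dorsal midbrain had 366 times the level of the ventral midbrain (exact 95% interval 168 to 999) and 172 times that of the hindbrain (102.5 to 316). The alar plate had 136 times (62.4 to 373) and the forebrain 106 times (48.3 to 289) the level of the ventral midbrain. Against the hindbrain the ratios were 64.2 (38.0 to 118) for the alar plate and 49.7 (29.4 to 91.4) for the forebrain. These intervals cover counting error only and not the spread between libraries.

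The limma adjusted p of Nr2e1 over regions was 3.33e-05, and 7 of 10 pairs passed. On the log2(RPKM + 1) scale, which understates changes of low genes, the dorsal midbrain was higher than the ventral midbrain by 4.37 (SE 0.427, adjusted p = 1.77e-05) and than the hindbrain by 4.28 (adjusted p = 3.3e-05). The alar plate was higher than the ventral midbrain by 3.0 and than the hindbrain by 2.92, and the forebrain by 2.55 and 2.47. With a pseudocount of 0.1 in place of 1, the dorsal minus ventral midbrain difference was 7.07. Forebrain minus dorsal midbrain was -1.81 (adjusted p = 0.0107). That call did not pass without dorsal midbrain 1 (adjusted p = 0.0571) or with the pair fitted alone (0.0527), with 2.35e-05 to 0.0571 over 24 alternatives, and forebrain minus hindbrain did not pass fitted alone (0.0658). Dorsal midbrain minus alar plate was 1.36 (95% interval 0.44 to 2.29, adjusted p = 0.106) although the groups did not overlap. Without the 3 libraries that lay apart, this difference was 1.88 (adjusted p = 0.00059). Those libraries were picked from these same data, and 9651 of 13646 genes were then called over regions, against 4631 of 13745. Among them were the lowest dorsal midbrain value (17.6 RPKM) and the highest alar plate value (13.7 RPKM), so this pass is no separate evidence. A difference between ventral midbrain and hindbrain, with 6 and 14 reads in all, was not detectable at this depth.

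Progenitor markers were present where Nr2e1 was nearly absent. Their summed RPKM was 1534 to 1764 in the ventral midbrain and 1299 to 1893 in the hindbrain, against 1385 to 1555 in the dorsal midbrain, 960 to 1149 in the forebrain and 901 to 1749 in the alar plate. Fabp7 and Vim, the most abundant of the 11, make up much of these sums. Of the 11 markers, 7 were called over regions (63.6%, against 33.7% of all tested genes). Of these 7, 5 were highest in the dorsal midbrain, 1 in the ventral midbrain and 1 in the hindbrain. Hes5, a Notch target of progenitors, was at 148, 151 and 68.9 RPKM in the dorsal midbrain and at 31.2 to 57.7 RPKM in the ventral midbrain and hindbrain. Mki67, a gene of dividing cells, was at 75.8, 63.2 and 33.6 RPKM in the dorsal midbrain and 11.4 to 25 RPKM in those 2 regions. Top2a, also of dividing cells, was at 145, 125 and 62.8 RPKM there and 18.6 to 39.2 RPKM in the ventral midbrain and hindbrain. Slc1a3, a glutamate transporter of radial glia, went the other way, with 9.67, 8.75 and 15.7 RPKM in the dorsal midbrain and 60.8 to 81.3 RPKM in the ventral midbrain and hindbrain. Fabp7, a fatty acid binding protein of radial glia, was likewise lowest in the dorsal midbrain (mean 334.5 RPKM) and highest in the hindbrain (730.4 RPKM). The part of any of these cell markers in the Nr2e1 level was not tested. Genes most like Nr2e1 were Gsx1 (r 0.969), Lix1 (0.963), Coro1c (0.959), Zic1 (0.957) and Ptn (0.956).

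Rora encodes the ROR best known for Purkinje cell maturation in the cerebellum. It was low in every region and no difference passed. Forebrain libraries had 4.61, 0.854 and 0.520 RPKM, which are 79, 14 and 11 reads. Dorsal midbrain libraries had 0.495, 0.888 and 0.944 RPKM and alar plate libraries 1.09, 1.11 and 0.168 RPKM, the last from 3 reads. Ventral midbrain libraries had 0.954, 1.22 and 1.44 RPKM and hindbrain libraries 0.927, 0.783 and 0.651 RPKM. Forebrain 1 stood above the other 14 libraries, which had 3 to 27 reads each.

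The mean of Rora was 1.99 ± 2.27 RPKM in the forebrain and between 0.776 ± 0.244 RPKM (dorsal midbrain) and 1.21 ± 0.243 RPKM (ventral midbrain) in the other regions (SD, n = 3 each). The limma adjusted p over regions was 0.608, and 0 of 10 pairs passed, with 0 at an unadjusted p under 0.05. The SE of a difference was 0.383 on the log2(RPKM + 1) scale, and dorsal minus ventral midbrain was -0.32 (95% interval -1.14 to 0.51). Forebrain 1 also had the highest level of Tcf7l2 (404 RPKM) and Gbx2 (111 RPKM, against 8.89 and 5.44 RPKM in forebrain 2 and 3), and whether these belong with its Rora was not tested. The genes most like Rora lost much of their likeness without the 3 libraries: Fam123a went from r 0.846 to 0.609 and Ank2 from 0.809 to 0.387, with Vash1 (0.76), 1700025G04Rik (0.75) and Aco1 (0.749) the next.

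Rorb encodes the ROR known from cortical layer neurons, retina and circadian circuits. Its level was about as low as that of Rora per length, but its longer gene model (5.45 times that of Rora) gave 33 to 169 reads a library. Alar plate libraries had 1.23, 1.43 and 1.01 RPKM, dorsal midbrain libraries 0.991, 1.13 and 0.939 RPKM, and forebrain libraries 1.51, 0.818 and 0.642 RPKM. Hindbrain libraries had 0.410, 0.674 and 0.606 RPKM and ventral midbrain libraries 0.385, 0.341 and 0.342 RPKM. The ventral midbrain values were the lowest 3 of all 15, and the hindbrain overlapped only with the forebrain.

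Means of Rorb were 1.22 ± 0.211 RPKM in the alar plate, 1.02 ± 0.10 RPKM in the dorsal midbrain, 0.990 ± 0.459 RPKM in the forebrain, 0.563 ± 0.137 RPKM in the hindbrain and 0.356 ± 0.0251 RPKM in the ventral midbrain (SD, n = 3 each). The limma adjusted p over regions was 0.0138. The alar plate was higher than the ventral midbrain by 0.71 (SE 0.15, adjusted p = 0.00745), a ratio of means of 3.43. For the dorsal midbrain the excess was 0.58 (adjusted p = 0.0161) and for the forebrain 0.53 (adjusted p = 0.0467). The alar plate call held in 23 of 23 alternatives, that of the dorsal midbrain in 19 and that of the forebrain in 7. The dorsal midbrain call did not pass without dorsal midbrain 1 (adjusted p = 0.0549), dorsal midbrain 2 (0.0686), ventral midbrain 2 (0.0579) or ventral midbrain 3 (0.0582). The forebrain call ended on leaving out forebrain 1 (difference 0.35, adjusted p = 0.132), on leaving out any other single library but forebrain 3 or alar plate 3, on fitting the pair alone (0.0996) and with the replicate number as a block (0.0532), with 0.0143 to 0.147 over the alternatives. Alar plate minus hindbrain was 0.51 (adjusted p = 0.0503).

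Genes most like Rorb were Lhx2 (r 0.943), Lhx9 (0.935), Smarcd1 (0.935), Aldh18a1 (0.925) and Nkain1 (0.921). Lhx2, a homeodomain gene, had region means of 73.1 RPKM in the forebrain, 86.5 RPKM in the dorsal midbrain and 122.6 RPKM in the alar plate, against 4.41 RPKM in the hindbrain and 0.428 RPKM in the ventral midbrain. The same order of regions is seen for Rorb, over a much narrower range.

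Over the 10 pairs of regions, 16 of the 60 differences of the 6 genes passed, where 0.0946% to 32.1% of all tested genes were called in a pair. Between the forebrain and the ventral midbrain, 3 of the 6 (Nr2f1, Nr2e1 and Rorb) differed, where 8.33% of all tested genes were called. Nr2f1, Nr2e1 and Rorb differed between the alar plate and ventral midbrain (3 of 6, background 14.2%) and between the dorsal and ventral midbrain (3 of 6, background 23.9%). Each was lower in the ventral midbrain, whose libraries these 3 comparisons share. Nr2f1 alone differed between the ventral midbrain and hindbrain (1 of 6, background 3.8%).

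Nr2e1 alone differed between the forebrain and hindbrain (1 of 6, background 2.7%) and between the alar plate and hindbrain (1 of 6, background 9.97%). Nr2f6 and Nr2e1 differed between the forebrain and dorsal midbrain (2 of 6, background 27.3%) and between the dorsal midbrain and hindbrain (2 of 6, background 32.1%), shares near those of all genes. By limma 0 of 6 differed between the forebrain and alar plate (background 0.0946%) and 0 of 6 between the dorsal midbrain and alar plate (background 1.67%), with 1 at an unadjusted p under 0.05 in each.

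**Figure D2:**
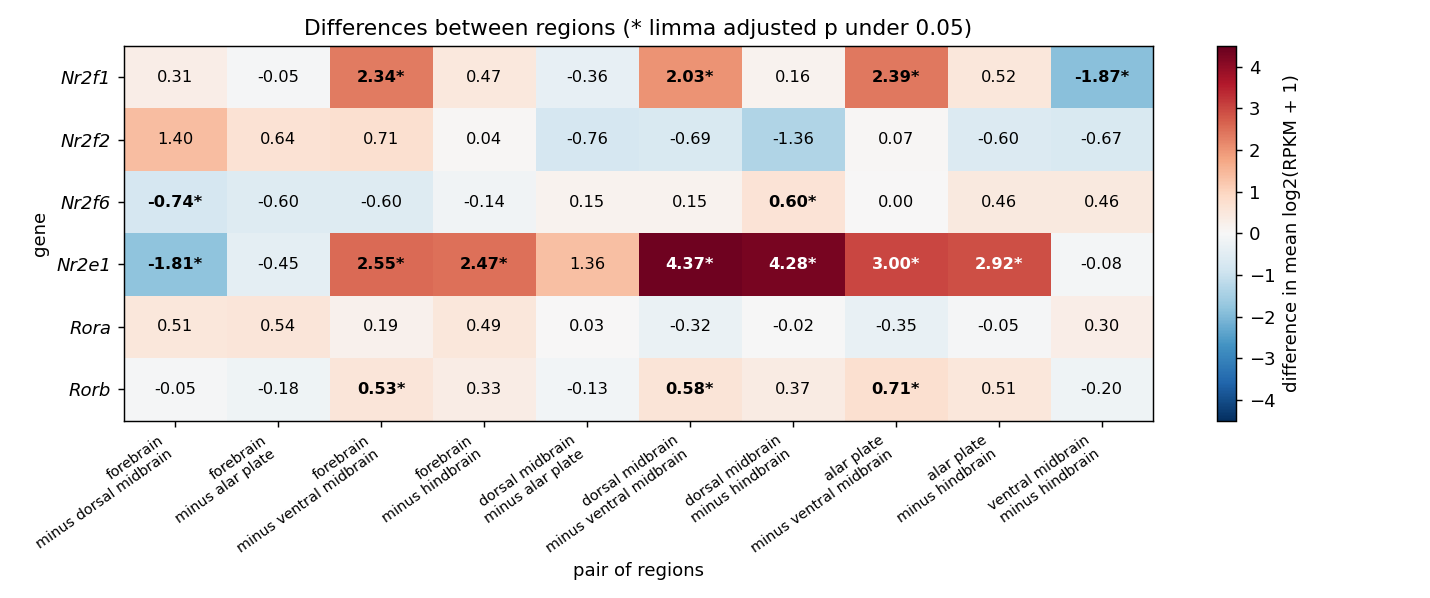
Difference in mean log2(RPKM + 1) (colour and printed value) of each receptor gene (rows) in the 10 pairs of regions (columns), first region minus second, 3 libraries each. Asterisks and bold type mark a limma adjusted p under 0.05 over 13745 genes. The largest values are those of Nr2e1 in the dorsal midbrain against the ventral midbrain (4.37) and hindbrain (4.28).

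Of the 43 other nuclear receptor genes of the table, 23 were tested and 12 of those were called over regions (52.2%, against 33.7% of all tested genes). The median range of region means was 0.62 on the log2(RPKM + 1) scale, against 0.48 over all tested genes. Of the 12, 4 were highest in the ventral midbrain, 3 in the dorsal midbrain, 2 each in the alar plate and hindbrain, and 1 in the forebrain. Nr2e3, the photoreceptor relative of Tlx, was listed at 0 in every library.

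Nr4a2 (Nurr1), required for dopaminergic neurons, had 89.1 to 99.7 RPKM in the ventral midbrain and 0.979 to 1.73 RPKM in the alar plate. Forebrain libraries had 8.15, 48.2 and 60.6 RPKM of Nr4a2 and hindbrain libraries 5.985, 25.1 and 35.1 RPKM. It was at 32.6 RPKM in dorsal midbrain 3 but at 0.827 and 0.781 RPKM in dorsal midbrain 1 and 2. Esrrg, an estrogen-related receptor, had 20.2 to 22.5 RPKM in the ventral midbrain and 0.913, 1 and 4.16 RPKM in the dorsal midbrain. Rxrg, a retinoid X receptor, had 5.21 to 5.85 RPKM in the ventral midbrain and at most 1.41 RPKM elsewhere. Nr4a3 was highest in the hindbrain, with 3.55, 15.7 and 16.4 RPKM.

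Differences of the other 5 named receptors were smaller. Thra, a thyroid hormone receptor, was the most abundant and lowest in the dorsal midbrain (56, 67.2 and 108 RPKM, against 133 to 157 RPKM in the hindbrain). Nr1d1, the circadian repressor Rev-erb alpha that competes with RORs for their element, was also lowest in the dorsal midbrain, with 6.37, 7.21 and 9.85 RPKM, against 13.2 to 17.2 RPKM in the forebrain. Rxra was highest in the dorsal midbrain (14.7, 14.8 and 7.8 RPKM) and lowest in the forebrain (4.37 to 7.09 RPKM). Esrra was highest in the alar plate and lowest in the ventral midbrain, and Nr1h2 highest in the dorsal midbrain and lowest in the hindbrain, with ranges of 0.77 and 0.42 on the log2 scale.

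**Figure D3:**
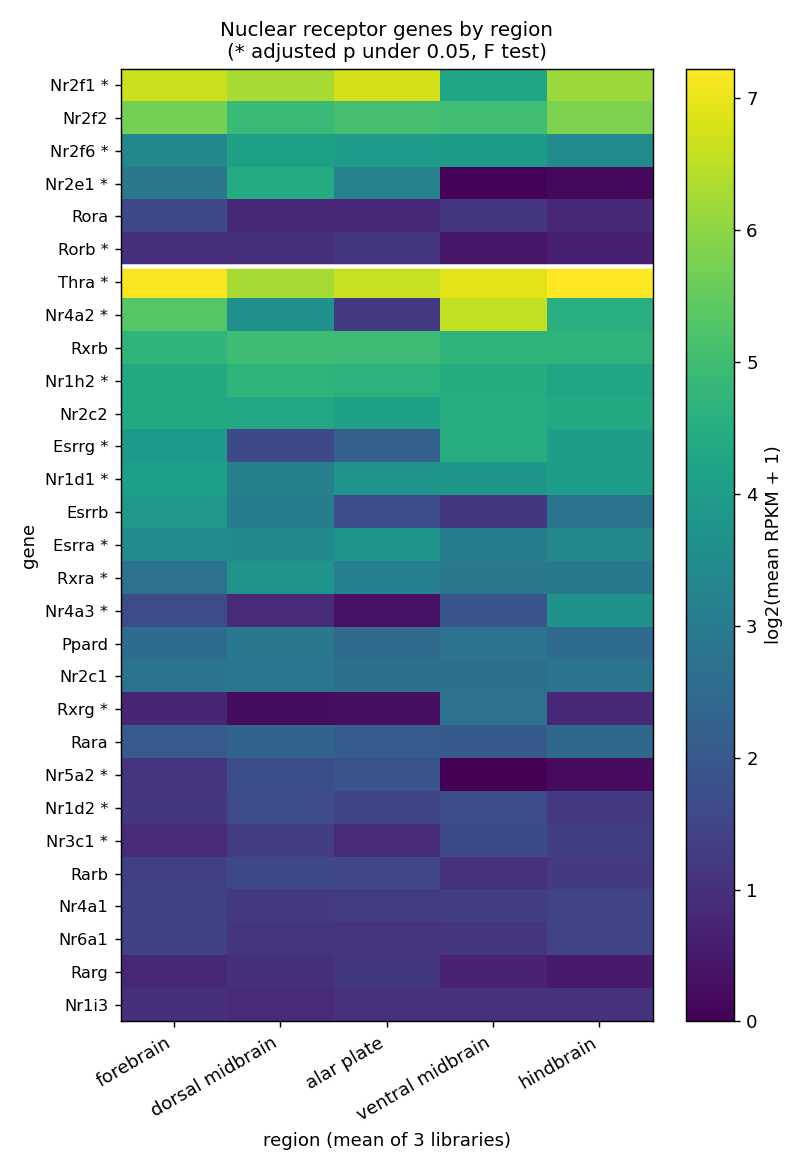
Mean level of the 6 receptor genes (above the white line) and of the 23 other tested nuclear receptor genes (below, ordered by their highest region mean) in the 5 regions, as log2(mean RPKM + 1) of 3 libraries in colour. Asterisks mark genes called by the F test over regions, 4 of 6 above the line and 12 of 23 below it.

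Partners of these receptors were counted the same way. Of 24 co-repressors, co-activators and binding partners, all tested, 5 were called over regions (20.8%, against 33.7% of all tested genes). The median range of the 24 was 0.56 against 0.48 over all tested genes. Zfpm2 (FOG2), known to bind COUP-TFII, had 1.73 to 3.08 RPKM in the ventral midbrain and 4.68 to 13.6 RPKM in the alar plate. Hdac1, a histone deacetylase, and Rcor2, of the LSD1 co-repressor complex, were highest in the dorsal midbrain, at 30.4 to 46.2 RPKM and 81.3 to 114 RPKM. Their lowest region means were in the hindbrain, at 20.6 to 25.1 RPKM and 45.5 to 59.9 RPKM.

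Of 17 genes reported elsewhere as targets of COUP-TFs, Tlx or RORs, 16 were tested and 7 called (43.8%, against 33.7% of all tested genes). Shh, a ventral signalling ligand, had 48 to 51.8 RPKM in the ventral midbrain, 13 to 27.7 RPKM in the hindbrain and at most 0.0626 RPKM in the dorsal midbrain. Nrp2, a semaphorin receptor, had 44 to 45 RPKM in the ventral midbrain and 41.6 to 47 RPKM in the hindbrain. It had 3.51 to 5.83 RPKM in the dorsal midbrain and 4.67 to 5.85 RPKM in the alar plate. Forebrain libraries had 4.08, 10 and 21 RPKM of Nrp2. Otx2, the homeodomain factor of forebrain and midbrain, was highest in the dorsal midbrain, at 80.1 to 161 RPKM, and 4.07 to 9.07 RPKM in the hindbrain. Sirt1, a deacetylase reported as a Tlx target, had 11.1 to 12.8 RPKM in the dorsal midbrain and 8.3 to 9.57 RPKM in the forebrain. Whether any of these genes is controlled by the 6 receptors here was not tested.

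**Figure D4:**
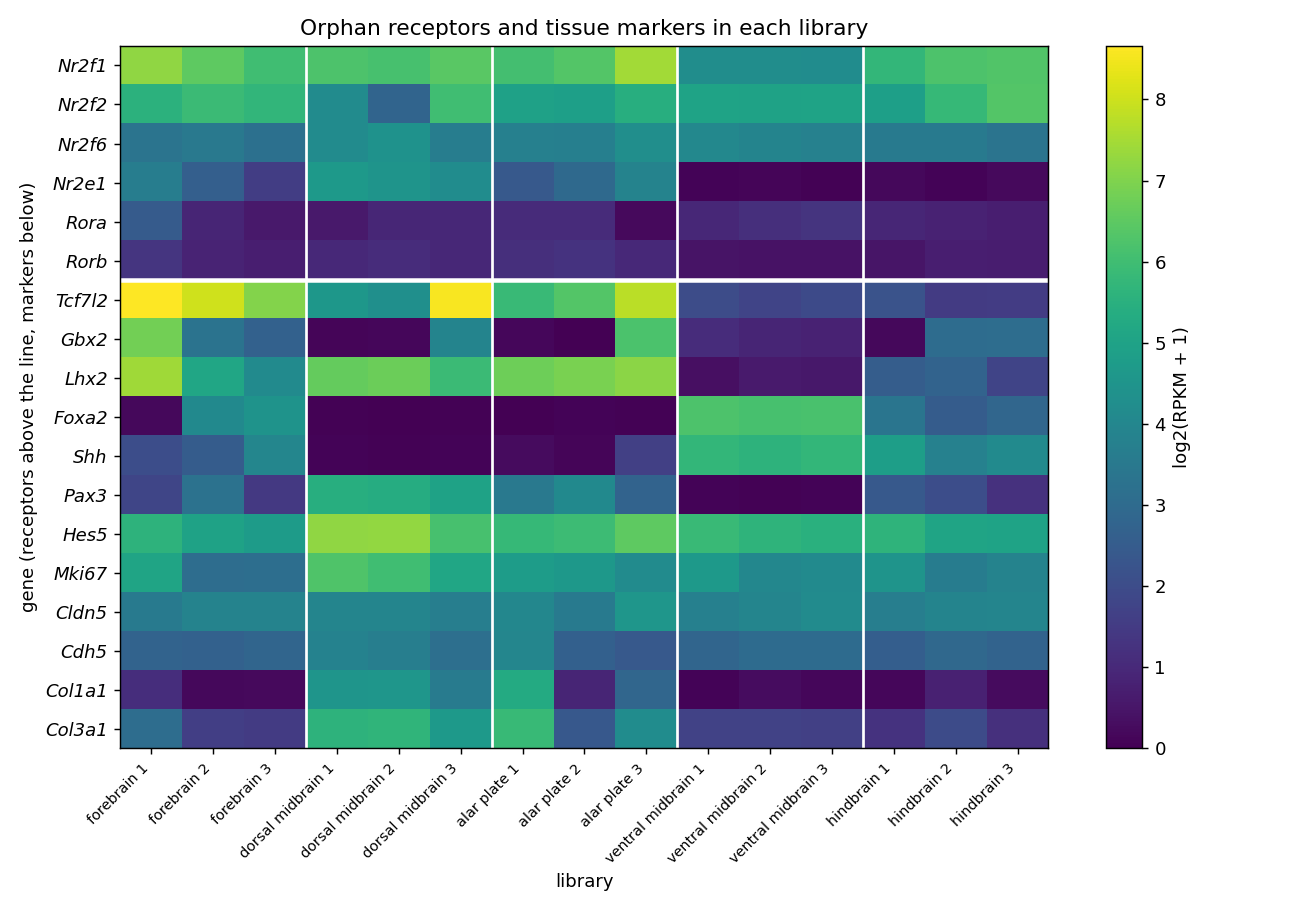
Level of the 6 receptor genes (above the white line) and of 12 tissue markers (below) in each of the 15 libraries, as log2(RPKM + 1) in colour, with vertical lines between regions. Forebrain 1, dorsal midbrain 3 and alar plate 3 have high Tcf7l2 (404, 378 and 214 RPKM) and Gbx2 (111, 14.1 and 73 RPKM). Tcf7l2 is also at 259 and 132 RPKM in forebrain 2 and 3. Gbx2 is at 5.44 to 8.89 RPKM in forebrain 2 and 3 and hindbrain 2 and 3.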

How the data were processed

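RNA was extracted with TriZol from tissue dissected at E12.5, per the labels' protocols. The authors deposited 1 table of RPKM values with a column for each of the 15 libraries, all matched to samples by title. Per the submitters' processing notes, Bowtie and the genome build mm9 were used; its version, the annotation, the counter and its strand setting: not given in the sources used here.

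The 13745 genes reaching 1 RPKM in 3 or more libraries were tested with limma 3.58.1 (R 4.3.3) after adding a pseudocount of 1 and taking log2, in 1 fit of the 5 regions whose prior variance followed the mean level. An F test and 10 pairwise contrasts were two-sided, with Benjamini-Hochberg adjustment over all tested genes and a threshold of 0.05. The procedure was tested on simulated data. RPKM values came out as whole multiples of 1 read for 16546 of 16612 genes above 0 in at least 10 libraries (99.6%, tolerance 0.02 reads, at most 0.15). The recovered reads served only for read numbers, depth, counting intervals and the relative lengths of gene models. Those lengths were inferred from the reads and not taken from an annotation. At 3 reads a value was treated as the floor of detection.

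The 6 genes and all gene lists were chosen with earlier results of these data known. Of each list, called genes with the widest range of region means and a highest mean of at least 5 RPKM are named, up to 4, or 10 for receptors; for each of the 6 genes, the 5 with the highest Pearson r. Genes given as markers or as a relative outside this rule were chosen after their values were seen, and some genes of the lists are not reported here. Sequences and neighbours are from RefSeq, GRCm38.p6, since the build of the table was not used for coordinates. Alternatives were another pseudocount, other filters and scalings, blocks, and leaving out libraries.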

Additional observations from a re-analysis of the deposited data

How the results depend on the processing

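Over the alternatives, 3 to 5 of the 6 genes differed among regions and 11 to 28 of the 60 pairwise differences passed, against 4 and 16. Leaving out 1 library at a time gave 3 to 5 genes and 11 to 21 differences, the fewest without dorsal midbrain 1 and the most without dorsal midbrain 3. Leaving out alar plate 3, dorsal midbrain 3 and forebrain 1 together gave 28 differences, and 9651 genes of the whole table were then called over regions, against 4631. That number was 7782 without alar plate 3, and 2352 and 2364 without dorsal midbrain 1 and 2. The causes were not tested. With a replicate block, 4 genes and 15 differences passed; the Rorb difference between forebrain and ventral midbrain was lost. Deviations of samples with the same number correlated with a median r of 0.236 (-0.175 to 0.405, above 0.1 in 18 of 30 pairs), against -0.1 (above 0.1 in 17 of 60) for other numbers. The same number thus went with higher r, but not in every pair, so the samples were not taken as paired. A block by runs of the TS numbers in the titles gave 4 genes and 18 differences. Of the 16 differences, 10 kept their call in every alternative run, 6 lost it in some and 0 reversed. At the filter of 5 RPKM, Rora and Rorb were not tested. Depth limits Nr2e1 in the ventral midbrain and hindbrain (1 to 7 reads a library) and Rora (3 to 27 reads outside forebrain 1).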
